A study of Mus musculus with 4 samples.

Results

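RNA for collagen chains was measured by RNA-seq in 4 stable lines derived from the murine preadipocyte line 3T3-L1, each on differentiation day 8. Members were all genes whose symbol has the form of a collagen chain (Col, a type number, the letter a and a chain number), which gave 27 of the 13085 genes measured. They comprised 9 fibrillar chains, 4 basement membrane chains of type IV collagen and 14 other chains. FLAG cells carry the FLAG vector alone and FLAG-CACUL1 cells stably express FLAG-tagged CACUL1. In sh-Luc cells a hairpin is directed against luciferase, and in sh-CACUL1 cells it is directed against CACUL1, a cullin-domain protein that associates with CDK2. All lines received the same adipogenic mixture, which held rosiglitazone at 5 μM, IBMX at 0.5 mM, dexamethasone at 1 μg/mL and insulin at 5 μg/mL. The lines were grown from drug-resistant colonies after plasmid transfection, under G418 for the FLAG vectors and under hygromycin B for the hairpin vectors, and neither the number of colonies in a line nor the species of the CACUL1 insert is given in the sources used here. The FLAG and sh-Luc controls thus differ in vector and in selection drug. Each line was sequenced as 1 sample, so no difference below has a replicate check and no test was possible.

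Collagen chains wind around each other into long, glycine-rich helices, and the chain types that pair decide which collagen is made. Fibrillar collagens (types I, II, III, V, XI, XXIV and XXVII) assemble into the banded fibres that bear tension in connective tissue, whereas type IV collagen forms the sheet-like network of basement membranes. Preadipocytes are fibroblast-like cells that deposit a fibrillar matrix, and each mature adipocyte is enclosed by a basement membrane. A change from fibrillar matrix to basement membrane is a known feature of adipocyte differentiation.

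Levels are given as FPKM, fragments scaled to transcript length and sequencing depth, so that chains can be compared within a sample. FPKM summed to between 372148 and 473584 per sample, and the steps between low values corresponded to an estimated 14200000 to 23900000 fragments, with sh-Luc the deepest. A difference is the log2 ratio of FPKM + 1, called at 2-fold or more, and a fold is the plain ratio of FPKM. Cacul1 itself had 9.61 FPKM in FLAG against 11.8 FPKM in FLAG-CACUL1, and 10.2 FPKM in sh-Luc against 5.39 FPKM in sh-CACUL1, and whether the row counts RNA from the construct is not known. The median log2 difference over all genes was 0.092 in FLAG-CACUL1 against FLAG, -0.303 in sh-CACUL1 against sh-Luc and -0.185 in FLAG against sh-Luc, so that a typical gene was somewhat lower in sh-CACUL1 in the values as deposited, and the differences below are to be read relative to these medians. In bulk RNA, fewer cells that make a chain and less RNA per cell cannot be told apart.

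Collagen RNA was abundant in all 4 lines and lowest in sh-CACUL1, where Col6a1 and Col6a2 still ranked at 135 and 129 among all genes. The 27 chains summed to 11206 FPKM in FLAG, 12852 FPKM in FLAG-CACUL1, 8848 FPKM in sh-Luc and 2771 FPKM in sh-CACUL1. Of all FPKM they made up 2.38% and 2.71% in the FLAG and FLAG-CACUL1 lines, and 2.13% and 0.745% in the sh-Luc and sh-CACUL1 lines. In the values as deposited, the sum was thus 3.19-fold lower in sh-CACUL1 than in its sh-Luc control, and 1.15-fold higher in FLAG-CACUL1 than in FLAG. The balance of the classes also differed between lines. Fibrillar chains held 60.1% of collagen FPKM in FLAG against 80.0% in FLAG-CACUL1, and 54.2% in sh-Luc against 36.4% in sh-CACUL1. Basement membrane chains held 12.0%, 4.79%, 14.1% and 19.2% in the same order. The 14 other chains held the rest, from 15.2% in FLAG-CACUL1 to 44.4% in sh-CACUL1. The ratio of fibrillar to basement membrane FPKM was 5.00 in FLAG against 16.7 in FLAG-CACUL1, and 3.86 in sh-Luc against 1.90 in sh-CACUL1. Scaling each sample by a single factor leaves this ratio unchanged, but quantile normalization can change it, and the ratio was not computed after that step. In the values as deposited it was therefore highest in FLAG-CACUL1 and lowest in sh-CACUL1, with the controls between them.

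**Figure D1:**
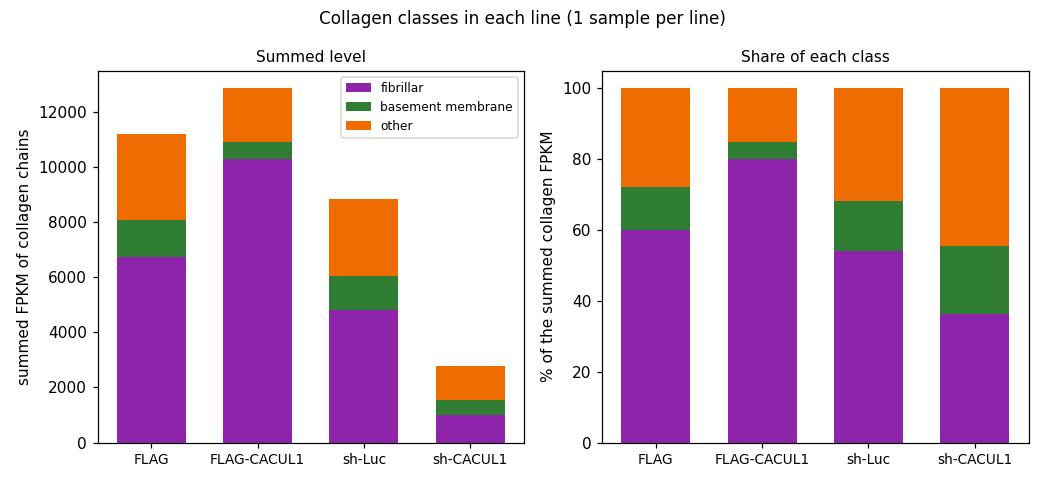
Summed FPKM of fibrillar, basement membrane and other collagen chains in each line (left, stacked bars) and the same as a percentage of collagen FPKM (right), with 1 sample per line. The fibrillar part is largest in FLAG-CACUL1, at 80.0% of collagen FPKM, and smallest in sh-CACUL1, at 36.4%.

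In FLAG-CACUL1 against FLAG, 2 of the 27 chains were at least 2-fold higher and 4 at least 2-fold lower. Over all 13085 genes 7.51% were 2-fold higher and 7.22% were 2-fold lower, so the 7.41% of chains that were higher is about the background share, and the 14.8% that were lower is 4 genes. The higher chains were Col1a2 and Col28a1, and the lower ones were Col4a1, Col5a3, Col12a1 and Col27a1. In sh-CACUL1 against sh-Luc, 11 of the 27 chains (40.7%) were 2-fold lower, where 16.4% of all genes were, and 3 (11.1%) were 2-fold higher, where 4.94% of all genes were. The median log2 difference of the 27 chains was 0.007 in FLAG-CACUL1, against 0.092 over all genes, and -0.674 in sh-CACUL1, against -0.303 over all genes. By class, the median in FLAG-CACUL1 was 0.397 for fibrillar, -0.465 for basement membrane and -0.262 for other chains. In sh-CACUL1 it was -2.21, -0.993 and -0.474, respectively. These comparisons share no sample. Of the 27 chains, Col4a1 alone was 2-fold lower in both, as were 105 of all 13085 genes. Col1a2 alone was 2-fold higher in FLAG-CACUL1 and 2-fold lower in sh-CACUL1, as were 395 of all 13085 genes. With 1 chain in each case, neither overlap can be read as particular to collagen chains.

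Scaling between samples changed these counts, for the chains and for all genes. After median-of-ratios scaling, which sets the typical gene equal between lines, 7 chains (25.9%) were 2-fold lower in sh-CACUL1, where 7.45% of all genes were, and 3 were 2-fold higher, where 9.41% of all genes were. The lower chains were then Col1a1, Col1a2, Col3a1, Col5a2, Col8a1, Col11a1 and Col16a1, while Col4a1, Col4a2, Col6a1 and Col6a2 no longer passed. In FLAG-CACUL1 the same scaling added Col4a2, Col6a3 and Col16a1 to the lower chains, which gave 7 where 8.93% of all genes were lower, and left the 2 higher chains, where 5.77% of all genes were higher. After quantile normalization, which also brings the medians near 0, 10 chains were 2-fold lower in sh-CACUL1, where 8.28% of all genes were, with Col6a2 the 1 chain lost, and 3 were higher, where 9.0% of all genes were. In FLAG-CACUL1 it kept the same 2 higher and 4 lower chains, where 6.35% and 7.8% of all genes were.

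**Figure D2:**
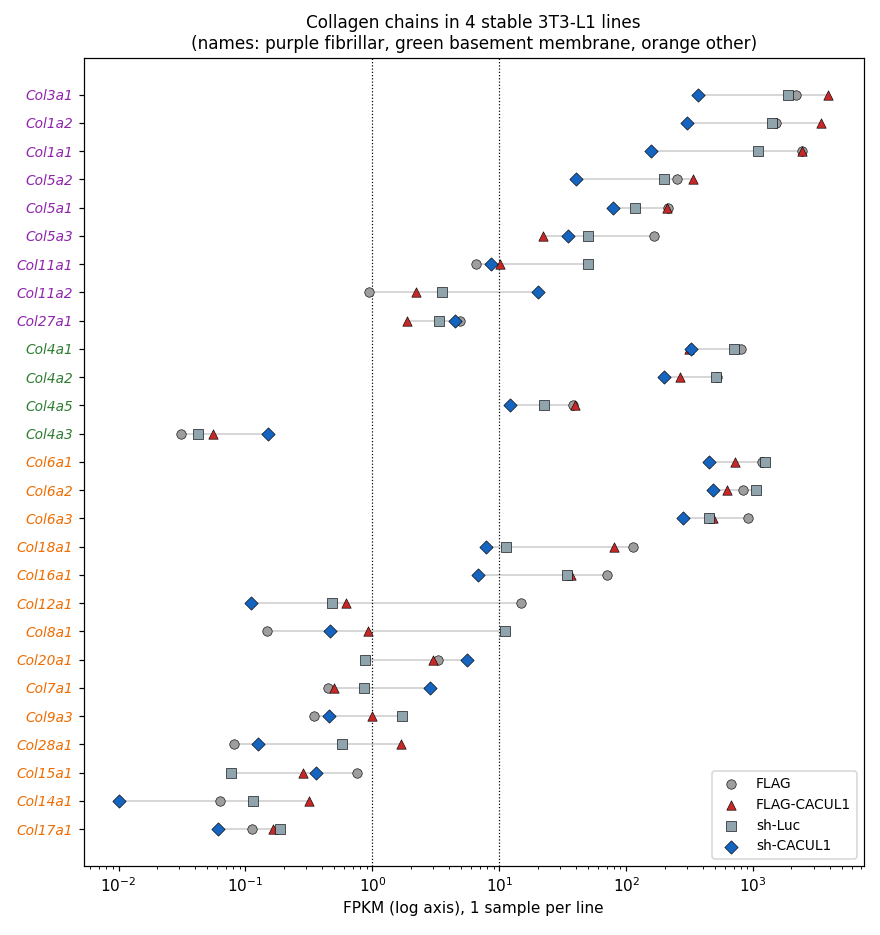
FPKM of each of the 27 collagen chains in the 4 lines on a log axis, with 1 sample per line and dotted lines at 1 and 10 FPKM. sh-CACUL1 has the lowest value for 15 of the 27 chains, including Col1a1, Col1a2, Col3a1 and the 3 type VI chains. The share of all genes that were lowest in sh-CACUL1 was not computed, so this count cannot be read as particular to collagen chains.

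Types I and III form the main fibrils of connective tissue, and their RNAs were among the most abundant of the whole transcriptome in 3 of the lines. Col1a1, the α1 chain of type I collagen, had 2412 FPKM in FLAG, 2424 FPKM in FLAG-CACUL1, 1095 FPKM in sh-Luc and 156 FPKM in sh-CACUL1. FLAG-CACUL1 and FLAG had nearly equal levels, whereas sh-CACUL1 was 7.01-fold below sh-Luc, a log2 difference of -2.80. Col1a1 ranked at 14 among all genes in FLAG and at 341 in sh-CACUL1. Col1a2, which encodes the partner chain of type I collagen, had 1524 FPKM in FLAG, 3397 FPKM in FLAG-CACUL1, 1396 FPKM in sh-Luc and 301 FPKM in sh-CACUL1. It was 2.23-fold higher in FLAG-CACUL1 (log2 difference 1.16) and 4.63-fold lower in sh-CACUL1 (log2 difference -2.21). Col3a1, the sole chain of type III collagen, had 2157 FPKM in FLAG, 3885 FPKM in FLAG-CACUL1, 1879 FPKM in sh-Luc and 365 FPKM in sh-CACUL1. It was the most abundant collagen RNA in FLAG-CACUL1, 1.80-fold above FLAG, and 5.15-fold lower in sh-CACUL1 than in sh-Luc. For all 3 genes FLAG and sh-Luc both lay above sh-CACUL1, so that the lower level in sh-CACUL1 held against either control.

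Type I collagen is mostly built from α1 and α2 chains at 2 to 1, and the RNAs did not keep a fixed ratio. Col1a1 over Col1a2 was 1.58 in FLAG against 0.714 in FLAG-CACUL1, and 0.784 in sh-Luc against 0.519 in sh-CACUL1, a range of 3.05-fold. FLAG alone had more Col1a1 than Col1a2. Col3a1 over Col1a2, in contrast, lay between 1.14 and 1.42 in the 4 lines. Col3a1 lies on the plus strand of chromosome 1 of GRCm38 from 45311538 to 45349706, 24614 bases from Col5a2 on the minus strand, with their 3′ ends facing each other. Col5a2 over Col3a1 also stayed within 1.37-fold between lines.

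**Figure D3:**
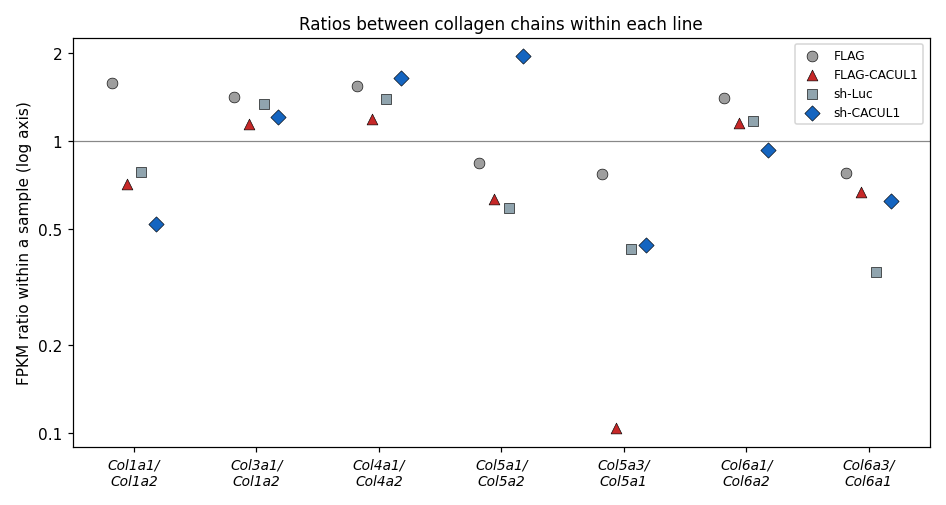
FPKM ratio of pairs of collagen chains within each sample on a log axis, with 1 sample per line. Col3a1/Col1a2, Col4a1/Col4a2 and Col6a1/Col6a2 vary by 1.5-fold or less between lines, whereas Col5a3/Col5a1 is 0.104 in FLAG-CACUL1 and at least 0.427 elsewhere.

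Types V and XI are minor fibrillar collagens that are incorporated into type I and II fibrils and limit their diameter. Col5a2 had 252 FPKM in FLAG, 333 FPKM in FLAG-CACUL1, 198 FPKM in sh-Luc and 40.1 FPKM in sh-CACUL1, the same order of lines as Col3a1. Its log2 difference was -2.28 in sh-CACUL1 and 0.40 in FLAG-CACUL1. Col5a1 had 212 FPKM in FLAG, 211 FPKM in FLAG-CACUL1, 117 FPKM in sh-Luc and 78.2 FPKM in sh-CACUL1. It passed 2-fold in neither comparison, with log2 differences of -0.011 and -0.577, so that Col5a1 over Col5a2 was 1.95 in sh-CACUL1 and between 0.591 and 0.841 in the other lines.

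The remaining type V chain, Col5a3, differed from both. Col5a3 had 164 FPKM in FLAG, 22.0 FPKM in FLAG-CACUL1, 49.97 FPKM in sh-Luc and 34.4 FPKM in sh-CACUL1. The FLAG-CACUL1 level was 7.46-fold below that of FLAG, a log2 difference of -2.85, while the fibrillar chains Col1a2, Col3a1 and Col5a2 were higher there. In sh-CACUL1 it was 1.45-fold below sh-Luc, less than the 2-fold limit. FLAG, the control, had the highest level by far, 3.28-fold above sh-Luc, and the difference of FLAG-CACUL1 from sh-Luc was -1.15 on the log2 scale. To show a fibrillar gene of each kind side by side, the 250 bases before the annotated start are printed here for Col3a1 (chr1:45311288-45311537, plus strand) and Col5a3 (chr9:20815068-20815317, minus strand), from RefSeq on GRCm38.p6. Capitals mark every match on either strand to the CCAAT box letters (CCAAT), to those of the GC box (GGGCGG) or to those of the TATA box (TATAAA).
Col3a1: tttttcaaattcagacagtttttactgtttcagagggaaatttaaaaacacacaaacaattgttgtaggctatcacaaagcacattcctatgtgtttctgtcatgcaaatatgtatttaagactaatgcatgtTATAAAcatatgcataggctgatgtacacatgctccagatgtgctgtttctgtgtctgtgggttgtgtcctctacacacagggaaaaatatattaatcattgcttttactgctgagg
Col5a3: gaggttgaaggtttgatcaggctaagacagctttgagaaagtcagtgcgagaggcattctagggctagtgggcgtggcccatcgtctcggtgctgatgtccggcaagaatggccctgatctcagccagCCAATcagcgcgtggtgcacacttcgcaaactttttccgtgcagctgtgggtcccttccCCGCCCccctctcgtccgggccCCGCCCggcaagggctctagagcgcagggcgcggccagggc
The Col5a3 window held CCAAT, 122 bases before the start, and 2 matches to GGGCGG, at 63 and 41 bases. The Col3a1 window held TATAAA at 117 bases and neither of the others. Among the 32851 windows of this length, 33.9% held CCAAT, 32.7% held GGGCGG and 12.4% held TATAAA. RefSeq windows were found for 21 of the 27 chain genes, of which 10 held CCAAT, 13 held GGGCGG and 3 held TATAAA. A match describes the letters only.

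The remaining fibrillar chains were less abundant. Col11a1 had 6.57 FPKM in FLAG, 10.2 FPKM in FLAG-CACUL1, 49.5 FPKM in sh-Luc and 8.65 FPKM in sh-CACUL1, so that sh-Luc stood apart and the other lines were close together. Its log2 difference of -2.39 in sh-CACUL1 became 0.35 when FLAG was the control. Col11a2 went the other way, with 0.948 FPKM in FLAG, 2.20 FPKM in FLAG-CACUL1, 3.51 FPKM in sh-Luc and 20.1 FPKM in sh-CACUL1. It was the one fibrillar chain that was 2-fold higher in sh-CACUL1, by 5.72-fold (log2 difference 2.22), and sh-CACUL1 was above every other line. Col11a2 over Col11a1 was 2.32 in sh-CACUL1 and 0.216 or less elsewhere. Col27a1, at 4.94 FPKM in FLAG, 1.86 FPKM in FLAG-CACUL1, 3.32 FPKM in sh-Luc and 4.48 FPKM in sh-CACUL1, was 2-fold lower in FLAG-CACUL1 only, with a log2 difference of -1.05.

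Type IV collagen was lower in both CACUL1 lines than in their controls, and the controls differed from each other by 1.12-fold or less for its main chains in the values as deposited. Col4a1 had 796 FPKM in FLAG, 314 FPKM in FLAG-CACUL1, 711 FPKM in sh-Luc and 323 FPKM in sh-CACUL1. Its partner Col4a2, which joins the α1 chain in the ubiquitous type IV protomer, had 514 FPKM in FLAG, 263 FPKM in FLAG-CACUL1, 509.5 FPKM in sh-Luc and 197 FPKM in sh-CACUL1. For each gene both controls were above both CACUL1 lines. The log2 differences in FLAG-CACUL1 were -1.34 for Col4a1 and -0.963 for Col4a2, just under the 2-fold limit for the latter, and in sh-CACUL1 they were -1.14 and -1.37. With the controls exchanged Col4a1 differed by -1.18 and -1.30, and Col4a2 by -0.951 and -1.38. The summed level of the 4 type IV chains was 2.19-fold lower in FLAG-CACUL1 and 2.34-fold lower in sh-CACUL1. After median-of-ratios scaling the log2 difference in sh-CACUL1 was -0.663 for Col4a1 and -0.896 for Col4a2, still lower but under 2-fold, whereas in FLAG-CACUL1 both passed 2-fold. After quantile normalization both passed in sh-CACUL1, at -1.14 and -1.37, and in FLAG-CACUL1 Col4a1 passed, at -1.25, and Col4a2 did not, at -0.876.

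Col4a1 over Col4a2 ranged only from 1.19 to 1.64 between lines. The 2 genes are arranged head to head on chromosome 8, Col4a1 on the minus strand from 11198423 to 11312826 and Col4a2 on the plus strand from 11312805 to 11449287. Their annotated 5′ ends overlap by 22 bases (chr8:11312805-11312826, GRCm38.p6). The stretch is shown, with the plus strand printed, because no other neighbouring pair among the chain genes measured overlapped. Col4a4 and Col4a6, which had no value here, were not compared.
Col4a1 and Col4a2 overlap: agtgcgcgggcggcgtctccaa
The overlap is 0.33% of the exonic bases of Col4a1, so reads that could belong to either gene are few. The other type IV chains measured were Col4a5 and Col4a3, which belong to the more restricted α3, α4, α5 and α6 networks. Col4a5, on chromosome X, had 37.9 FPKM in FLAG, 39.1 FPKM in FLAG-CACUL1, 22.5 FPKM in sh-Luc and 12.0 FPKM in sh-CACUL1, with log2 differences of 0.042 and -0.850. FLAG-CACUL1 and FLAG thus had nearly equal Col4a5 levels, while Col4a1 was lower in FLAG-CACUL1. Col4a3 was below 1 FPKM in every line.

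**Figure D4:**
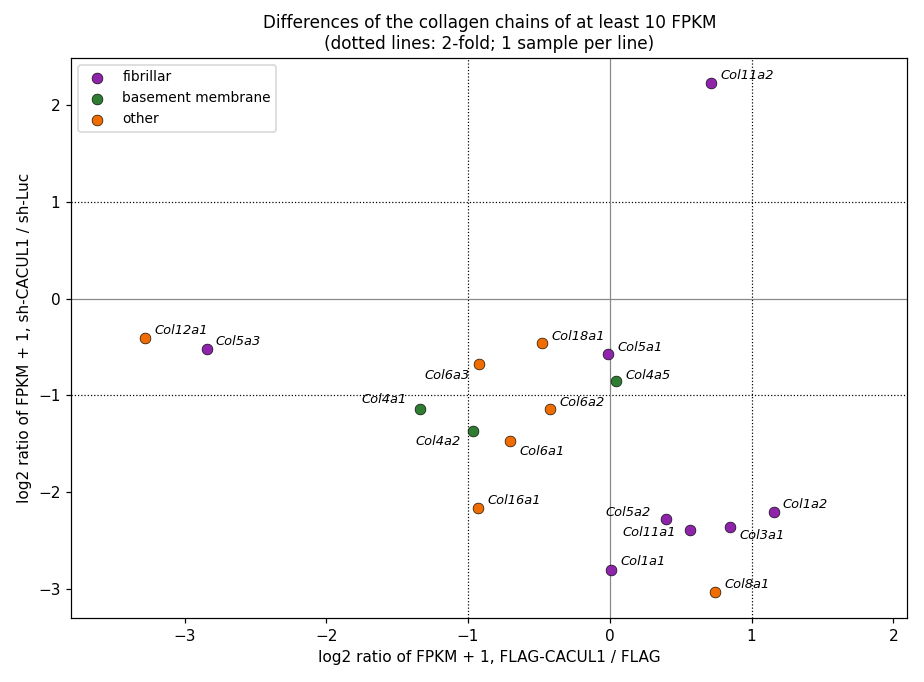
Log2 ratio of FPKM + 1 in FLAG-CACUL1 against FLAG (horizontal) and in sh-CACUL1 against sh-Luc (vertical) for the 18 collagen chains with at least 10 FPKM in any line, with dotted lines at 2-fold and 1 sample per line. Col1a2, Col3a1, Col5a2, Col8a1 and Col11a1 lie at the lower right. At the lower left are Col4a1, Col4a2, the type VI chains, Col5a3, Col12a1, Col16a1 and Col18a1. Col1a1, Col4a5 and Col5a1 lie between them, with almost no horizontal difference, and Col11a2 alone lies at the top.

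Type VI collagen forms beaded microfilaments next to cells and basement membranes and is plentiful in adipose tissue. Col6a1 had 1171 FPKM in FLAG, 719 FPKM in FLAG-CACUL1, 1245 FPKM in sh-Luc and 448 FPKM in sh-CACUL1. Col6a2 had 836 FPKM in FLAG, 624 FPKM in FLAG-CACUL1, 1060.3 FPKM in sh-Luc and 479 FPKM in sh-CACUL1. Col6a3, the longest chain, had 914 FPKM in FLAG, 482 FPKM in FLAG-CACUL1, 446 FPKM in sh-Luc and 279 FPKM in sh-CACUL1. In sh-CACUL1 the log2 differences were -1.47, -1.14 and -0.674, and in FLAG-CACUL1 they were -0.704, -0.422 and -0.921, none of the latter past 2-fold. Type VI was therefore below its own control in both CACUL1 lines, as type IV was, but for Col6a3 FLAG-CACUL1 lay slightly above sh-Luc. Type VI held 43.5% of collagen FPKM in sh-CACUL1, more than the fibrillar chains there, against 31.1% in sh-Luc, 26.1% in FLAG and 14.2% in FLAG-CACUL1. Col6a1 and Col6a2 lie in tandem on the minus strand of chromosome 10, 85161 bases apart, and their ratio ranged from 0.936 to 1.40. Col6a3, on chromosome 1, varied more against Col6a1, from 0.358 in sh-Luc to 0.780 in FLAG.

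Col18a1 differed more between the vector pairs than within them. Col18a1, a multiplexin of basement membranes whose C-terminal fragment is endostatin, had 113 FPKM in FLAG, 80.7 FPKM in FLAG-CACUL1, 11.2 FPKM in sh-Luc and 7.89 FPKM in sh-CACUL1. Both FLAG lines were far above both hairpin lines, with a 10.0-fold difference between the controls, and the log2 differences in FLAG-CACUL1 and sh-CACUL1 were only -0.478 and -0.459. Its neighbour Col6a1, 326009 bases away on the same strand, had equal levels in the controls within 1.06-fold. Col16a1, a FACIT collagen (one that associates with fibrils through interrupted helices), had 70.8 FPKM in FLAG, 36.6 FPKM in FLAG-CACUL1, 33.8 FPKM in sh-Luc and 6.75 FPKM in sh-CACUL1. It was 5.01-fold lower in sh-CACUL1 and 1.93-fold lower in FLAG-CACUL1, each against its own control.

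Col12a1 and Col8a1 passed 10 FPKM in 1 control alone. Col12a1, another FACIT collagen of tendon and fascia, had 14.8 FPKM in FLAG, 0.624 FPKM in FLAG-CACUL1, 0.478 FPKM in sh-Luc and 0.110 FPKM in sh-CACUL1. Its log2 difference of -3.28 in FLAG-CACUL1 thus depends on the high FLAG value and was 0.136 against sh-Luc. Col8a1, a short-chain collagen that builds lattice-like networks, had 0.147 FPKM in FLAG, 0.920 FPKM in FLAG-CACUL1, 11.01 FPKM in sh-Luc and 0.464 FPKM in sh-CACUL1. It was 23.7-fold lower in sh-CACUL1 than in sh-Luc, yet 0.35 higher on the log2 scale than in FLAG. For both chains a single control stood apart from the other 3 lines.

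The controls differed from each other for many chains. In FLAG against sh-Luc, 7 of the 27 chains (25.9%) were 2-fold higher, where 8.58% of all genes were, and 4 (14.8%) were 2-fold lower, where 12.4% of all genes were. After median-of-ratios scaling 9 chains were higher and 3 lower, where 12.0% and 7.16% of all genes were. After quantile normalization 5 were higher and 2 lower, where 10.3% and 8.74% of all genes were, and Col1a1, Col6a3, Col9a3 and Col11a2 no longer passed. Before scaling the higher chains were Col1a1, Col5a3, Col6a3, Col12a1, Col16a1, Col18a1 and Col20a1, and the lower ones Col8a1, Col9a3, Col11a1 and Col11a2. The summed fibrillar level was 1.41-fold and the summed type IV level 1.08-fold higher in FLAG in the values as deposited, but the direction for type IV depended on the scaling, with a log2 difference of 0.116 as deposited, 0.411 after median-of-ratios scaling and -0.268 after quantile normalization. For the summed other chains it was 0.152, 0.446 and -0.152, respectively. With FLAG as its control, sh-CACUL1 had 14 chains 2-fold lower, where 15.4% of all genes were, and 8 of them were among the 11 found against sh-Luc, while 2 were 2-fold higher, where 7.45% of all genes were. With sh-Luc as its control, FLAG-CACUL1 had 5 chains 2-fold higher (Col1a1, Col1a2, Col3a1, Col18a1 and Col20a1), where 5.04% of all genes were, and 4 lower, where 4.87% were, and Col4a1 and Col5a3 were lower with either control. All of these comparisons reuse the same 4 samples.

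Chains of 1 to 10 FPKM held from an estimated 5 fragments, for Col28a1 in FLAG, to 605, for Col27a1 in sh-Luc. Col20a1, a FACIT collagen, had 3.27 FPKM in FLAG, 2.98 FPKM in FLAG-CACUL1, 0.875 FPKM in sh-Luc and 5.56 FPKM in sh-CACUL1, a log2 difference of 1.81 in sh-CACUL1. Col7a1, the anchoring fibril collagen of epithelia, was highest in sh-CACUL1, at 2.84 FPKM against 0.854 FPKM in sh-Luc and 0.446 to 0.503 FPKM in the FLAG lines. Col28a1 had 1.68 FPKM in FLAG-CACUL1, an estimated 101 fragments, against 0.0814 FPKM and an estimated 5 fragments in FLAG, and this is the other chain called higher in FLAG-CACUL1. Col9a3, a cartilage FACIT chain, was lowest in FLAG, at 0.347 FPKM, and highest in sh-Luc, at 1.72 FPKM. Col4a3, Col14a1, Col15a1 and Col17a1 stayed below 1 FPKM in every line, and a further 17 chain genes of the RefSeq table had no value under their symbol in the data used here.

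Genes that act on collagen chains were described from a list of 52, of which 44 were measured. In sh-CACUL1 26 of the 44 were 2-fold lower than in sh-Luc and none was 2-fold higher (the largest log2 difference was 0.45, for Loxl2), nor was any after median-of-ratios scaling, when 22 were lower. The background was 16.4% lower and 4.94% higher over all genes in the values as deposited. In FLAG-CACUL1 12 were 2-fold higher than in FLAG and 8 were 2-fold lower, against 7.51% and 7.22% of all genes. The controls themselves differed for more of these genes, with 11 of the 44 at least 2-fold higher and 16 at least 2-fold lower in FLAG than in sh-Luc, against 8.58% and 12.4% of all genes. Of the enzymes that hydroxylate proline and lysine on new chains or assist that step, 4 of 12 were 2-fold lower in FLAG-CACUL1 and 5 of 12 in sh-CACUL1. The prolyl 4-hydroxylase gene P4ha2 and the lysyl hydroxylase gene Plod1 passed in both, with log2 differences of -1.05 and -1.55 for P4ha2 and of -1.76 and -1.64 for Plod1. P4ha3 passed in opposite directions, at 1.87 in FLAG-CACUL1 and -3.55 in sh-CACUL1. Tram2, a translocon component linked to type I collagen synthesis, was lower in both, by -2.31 and -1.82. For both P4ha2 and Tram2 FLAG was the highest line, and FLAG-CACUL1 was not 2-fold below sh-Luc: P4ha2 had 346 FPKM in FLAG, 167 FPKM in FLAG-CACUL1 and 56.0 FPKM in sh-Luc, and Tram2 had 33.5, 5.97 and 6.76 FPKM. The level of Plod1 was 706 FPKM in FLAG, 208 FPKM in FLAG-CACUL1, 297 FPKM in sh-Luc and 95.0 FPKM in sh-CACUL1, with both controls above both CACUL1 lines as for Col4a1.

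Some genes for proteins that act on collagen outside the cell passed 2-fold in opposite directions in the 2 comparisons, and others did not. Of the 6 genes for propeptide removal, 3 were 2-fold higher in FLAG-CACUL1 and 5 were 2-fold lower in sh-CACUL1. Adamts2, the procollagen N-proteinase gene, had log2 differences of 2.85 and -2.51, and Bmp1, the C-proteinase gene, of 1.17 and -1.09. Of the 5 lysyl oxidase genes, whose products crosslink collagen, 4 were lower in sh-CACUL1. Loxl1 differed by 1.07 and -1.78 and Loxl4 by 1.09 and -2.54, whereas Lox, at -0.022 and -3.32, passed in sh-CACUL1 only, and Loxl2 was 2-fold lower in FLAG-CACUL1, at -1.14. The list for degradation held the largest differences, with 5 of 8 genes 2-fold higher in FLAG-CACUL1 and 6 of 8 2-fold lower in sh-CACUL1. The gelatinase gene Mmp2 had 324.5 FPKM in FLAG, 1624 FPKM in FLAG-CACUL1, 1504 FPKM in sh-Luc and 293 FPKM in sh-CACUL1, which puts FLAG beside sh-CACUL1 and FLAG-CACUL1 beside sh-Luc. The membrane collagenase gene Mmp14 (log2 differences 1.97 and -2.68), the cathepsin K gene Ctsk (3.51 and -2.07) and the inhibitor gene Timp2 (3.93 and -3.27) also passed in both, in opposite directions. The controls differed too: FLAG against sh-Luc was -2.92 for Adamts2, -1.215 for Bmp1 and -1.79 for Loxl1. It was -2.28 for Mmp14, -2.01 for Ctsk and -3.94 for Timp2, but -0.384 for Loxl4. FLAG-CACUL1 was above sh-Luc for Ctsk and Loxl4, and below it for Loxl1 and Mmp14. It was close to sh-Luc for Timp2 (544 against 546 FPKM), Bmp1 (78.7 against 81.1 FPKM) and Adamts2 (46.6 against 48.8 FPKM). Against FLAG, sh-CACUL1 was lower for Mmp14 and Loxl4, and higher for Adamts2 and Timp2. It was close to FLAG for Ctsk (27.7 against 28.7 FPKM), Loxl1 (42.7 against 42.2 FPKM) and Bmp1 (37.6 against 34.4 FPKM). Mmp9 (-0.748 and -3.94) passed in sh-CACUL1 only and Mmp13 (3.79 and -0.182) in FLAG-CACUL1 only. The order of lines for Mmp2 differed from that of Col1a1, which was high in FLAG. Of the 7 collagen receptor genes, 4 were 2-fold lower in sh-CACUL1, and in FLAG-CACUL1 2 were lower and none was 2-fold higher, the largest log2 difference there being 0.858 for Ddr2.

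**Figure D5:**
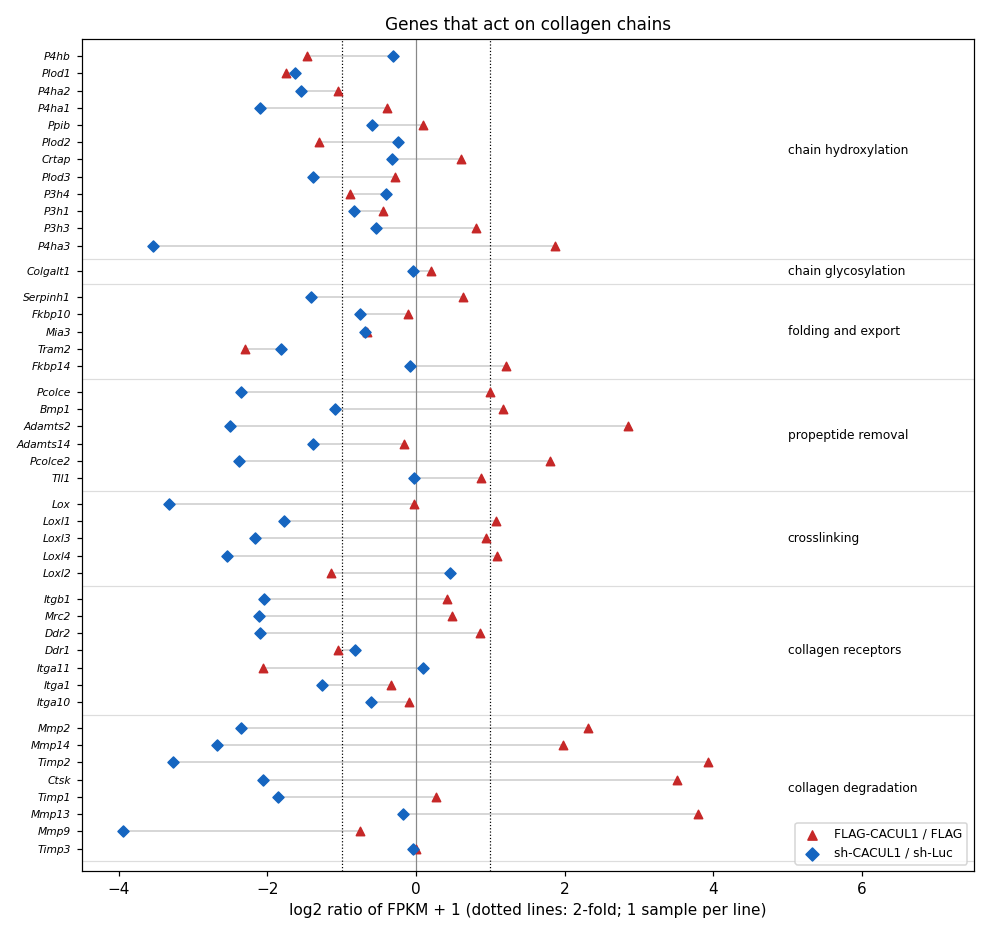
Log2 ratio of FPKM + 1 for 44 genes that act on collagen chains, grouped by role, in FLAG-CACUL1 against FLAG (triangles) and in sh-CACUL1 against sh-Luc (diamonds), with dotted lines at 2-fold and 1 sample per line. In sh-CACUL1 26 of the 44 genes lie at or below the lower line. From the degradation list, Mmp2, Mmp14, Ctsk and the inhibitor gene Timp2 are on opposite sides in the 2 comparisons.

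Markers of cell types differed along with the collagen chains. The 7 adipocyte markers measured of 8 (Adipoq, Plin1, Cfd, Cidec, Fabp4, Lpl and Retn) summed to 8358 FPKM in FLAG, 869.5 FPKM in FLAG-CACUL1, 1673 FPKM in sh-Luc and 17561 FPKM in sh-CACUL1. All 7 were 2-fold lower in FLAG-CACUL1 and 2-fold higher in sh-CACUL1, each against its own control, and none was at 0 in any line, although the labels give the cell type as preadipocyte. Of the 8 preadipocyte or fibroblast markers measured of 9, 5 were 2-fold higher in FLAG-CACUL1 and 5 were 2-fold lower in sh-CACUL1. Dlk1 was 2-fold lower in FLAG-CACUL1 (log2 difference -1.28), Vim had a difference of -0.764 there, and Dlk1 and Thy1 were 2-fold higher in sh-CACUL1. The 8 markers summed to 4055 FPKM (FLAG), 4825 FPKM (FLAG-CACUL1), 5021 FPKM (sh-Luc) and 1132 FPKM (sh-CACUL1). The fibroblast marker Fn1, which encodes fibronectin, was 35.8 FPKM in sh-CACUL1 and 745 FPKM or more in the other lines. FLAG exceeded sh-Luc both in the adipocyte marker sum and in summed fibrillar collagen FPKM. Of the markers of other cell types, Pecam1, the 1 endothelial marker measured of 4, was at 0.301 FPKM or less. The macrophage markers Cd68 and Csf1r, 2 measured of 4, summed to 16.8 FPKM in FLAG, nearly all of it Cd68, and to between 1.08 and 1.84 FPKM in the other lines. The myofibroblast markers Acta2 and Tagln, 2 measured of 4, summed to 33.7 FPKM in sh-Luc, 23.9 FPKM in FLAG-CACUL1, and only 3.18 and 2.35 FPKM in the FLAG and sh-CACUL1 lines. The 3 osteoblast markers measured of 6 summed to between 9.74 FPKM in sh-CACUL1 and 177 FPKM in FLAG-CACUL1, most of the latter from Spp1 at 171 FPKM (148 FPKM in FLAG), and the sum of the 2 chondrocyte markers measured of 5 ranged from 6.12 FPKM (FLAG) to 22.6 FPKM (sh-Luc). The part of the degree of differentiation in the collagen differences was not tested.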

How the data were processed

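mRNA-seq libraries were prepared from total RNA by a sequencing service. The aligner, FPKM program and strand setting are not given in the sources used here, and the submitters' processing notes name mm10. The authors deposited 1 table of FPKM per sample, with RefSeq transcript identifiers. Identifiers were matched to symbols with GENCODE M21: of 13110 rows 196 had no symbol and 8 had several, and rows were summed by symbol to 13085 genes. Each collagen chain had 1 row. Depth was estimated from the spacing of low FPKM values over 4241 rows, on the assumption that values are whole fragments divided by length.

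Each sample was its own group as labelled, so no test was run. A difference was log2 of the ratio of FPKM + 1, called at 2-fold, the fold limit used by the study. The calculation was tested on simulated data. Chains of at least 10 FPKM in any sample were named with all values, those of 1 to 10 FPKM where they passed 2-fold in a comparison, and partner genes where they passed in both CACUL1 comparisons at 10 FPKM or more. Lox, Loxl2, Ddr2, Mmp9, Mmp13 and single marker genes were named after their values were seen. The members and lists were chosen with earlier results of these data known. Alternatives were pseudocounts of 0.1 and none, filters at 1 FPKM, quantile and median-of-ratios scaling, the row with the highest mean, limits of 1.5-fold and 3-fold, and the other control. Python 3.11.15, numpy 2.4.6, pandas 2.3.3 and matplotlib 3.10.9 were used.
Promoter sequences were read from RefSeq on GRCm38.p6 and gene positions from GENCODE M21.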

Additional observations from a re-analysis of the deposited data

How the results depend on the processing

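With 1 sample per line, no error can be set on any difference, and FPKM keeps no stated depth. Some low chains rest on few estimated fragments. No paired analysis was possible because each group has 1 sample. In FLAG-CACUL1 against FLAG, the 2 chains 2-fold higher became 6 with a pseudocount of 0.1, 6 with none, 1 with at least 1 FPKM in all samples, 0 at 3-fold, 5 at 1.5-fold and 5 with sh-Luc as control, and the 4 lower became 7 after median-of-ratios scaling, 2 at 3-fold and 8 at 1.5-fold. In sh-CACUL1 against sh-Luc, the 3 higher became 5 with no pseudocount and 0 with at least 1 FPKM in all samples, and the 11 lower became 7 after median-of-ratios scaling and 7 at 3-fold. In FLAG against sh-Luc, the 7 higher became 3 at 3-fold, and the 4 lower became 1 with at least 1 FPKM in all samples, 2 after quantile normalization and 2 at 3-fold. For the pseudocounts, the filters and the limits of 1.5-fold and 3-fold, the share of all genes called was not computed. Counts under those settings therefore cannot be read as particular to collagen chains. With the other control the log2 difference turned to 0.136 for Col12a1 in FLAG-CACUL1 and to 0.352 for both Col11a1 and Col8a1 in sh-CACUL1, since the control itself was exchanged. For the other changes the cause was not tested. Class totals and counts of partner genes stayed within 1.5 times of their values under quantile and median-of-ratios scaling. Even so, 2 totals in sh-CACUL1 against sh-Luc fell under the 2-fold limit after median-of-ratios scaling. The log2 difference went from -1.224 to -0.750 for the basement membrane total and from -1.191 to -0.717 for the other total. That of the fibrillar total went from -2.248 to -1.773. In FLAG against sh-Luc, however, quantile normalization turned the log2 difference of the basement membrane total from 0.116 to -0.268 and that of the other total from 0.152 to -0.152. Taking the row with the highest mean could change neither class totals nor chain ratios, because each chain had 1 row. For chain ratios no other alternative was run.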
